A study of Homo sapiens with 36 samples.

Results

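Expression of 9 enzymes of serine synthesis and folate one-carbon metabolism was followed through a melanoma drug response. The genes were PHGDH, PSAT1, PSPH, SHMT1, SHMT2, MTHFD1, MTHFD1L, MTHFD2 and ALDH1L2, found among the 60656 annotated genes of each library by matching gene symbols to Ensembl identifiers. The rule uses gene names and no measured value, although it was set with earlier results of these data known. RNA-Seq was run on A375TR-NR2F1, 1205LuTR-NR2F1 and WM793TR-NR2F1 cells, called A375, 1205Lu and WM793 here, which are human melanoma lines with a BRAF-V600 mutation. Each of the 3 lines carries the Tet repressor and a lentiviral NR2F1 cDNA that doxycycline (DOX) switches on, so the cells without DOX carry the construct as well. There were 4 treatments, DMSO, DMSO + DOX, BRAFi + MEKi and BRAFi + MEKi + DOX, with 3 libraries in each of the 12 groups and 36 libraries in all. BRAFi was PLX4720 at 1 µM, MEKi was PD0325901 at 35 nM and DOX was given at 100 ng/mL. Cells were kept with or without DOX for 24 h and then held in their treatment for 72 h. The study asked how forced NR2F1, an orphan nuclear receptor tied to tumor dormancy, alters the transcriptome of cells under BRAF and MEK inhibition. Every library with DOX also carried the NR2F1 cDNA, and the action of DOX itself and that of NR2F1 cannot be told apart. WM793 and 1205Lu are related, since 1205Lu was derived from WM793, and these were grown in a different medium from A375.

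Serine is made from a glycolytic intermediate in a chain of reactions run by PHGDH, PSAT1 and PSPH. Serine hydroxymethyltransferases, SHMT2 in mitochondria and SHMT1 in the cytosol, then split serine into glycine and a one-carbon unit that is loaded onto tetrahydrofolate. In mitochondria MTHFD2 oxidizes that unit and MTHFD1L releases it as formate, while ALDH1L2 can oxidize it to carbon dioxide. In the cytosol MTHFD1 takes formate back into folate carriers for the synthesis of purines and thymidylate. Several of these genes, PHGDH, PSAT1, SHMT2, MTHFD2 and ALDH1L2 among them, are known targets of the stress-activated transcription factor ATF4, and MYC is also known to raise expression of the pathway in growing cells.

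On GRCh38 with GENCODE 44 annotation, PHGDH lies at chr1:119648411-119744218, PSAT1 at chr9:78297125-78330093 and PSPH at chr7:56011051-56051604. SHMT1 is at chr17:18327860-18363563 and SHMT2 at chr12:57229573-57234935. The genes of the MTHFD family lie at chr14:64388031-64463457 (MTHFD1), chr6:150865679-151101887 (MTHFD1L) and chr2:74186172-74217565 (MTHFD2), and ALDH1L2 at chr12:105019784-105107643. PSPH, SHMT1 and ALDH1L2 are on the minus strand and the others on the plus strand. The library kit does not keep strand, and some members overlap expressed genes on the opposite strand. SHMT1 overlaps SMCR8, which has a mean value of 2101 over the 36 libraries, and ALDH1L2 overlaps WASHC4, with a mean of 2977, so reads at those loci may be shared. The pseudogene MTHFD2P1 never exceeded 55.3.

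Values are the normalized expression per gene that the authors deposited, and levels are not compared between genes because these values are not scaled by transcript length. Library totals ran from 27027824 to 34621958 and 16636 to 23596 genes had a value above 0. Precision rests on 3 libraries per group, since no read counts were used here. NR2F1 was higher in every library with DOX than in any library without it in the same line and inhibitor arm. In 1205Lu, for example, NR2F1 lay between 2805 and 4575 under BRAFi + MEKi and between 30839 and 35345 with DOX added, reads of the cDNA included. DUSP6, a direct readout of ERK signaling, had log2 changes of -3.13 in A375, -4.09 in 1205Lu and -2.25 in WM793 under BRAFi + MEKi, all called. Of the melanocyte lineage markers, SOX10 ranged from 5684 to 24854 over all libraries, while MLANA and TYR were at 0 in 35 of the 36 libraries each. Among 9 markers of blood, endothelial and epithelial cells, the T cell and leukocyte markers never exceeded 91.0, and the summed value of the 9 stayed between 4.54 and 313. In 1205Lu that sum was between 7.89 and 20.0 in DMSO and between 67.9 and 118 under BRAFi + MEKi, and in A375 PTPRC, a leukocyte marker, was at 0 in DMSO and between 6.54 and 27.0 under BRAFi + MEKi. The part of these low values in the results was not tested.

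A pair of libraries stood apart from their replicates in these very genes, and the main results that involve them are also given without them. They were picked after the values of these enzymes were seen. Leaving them out can lower the spread of the same enzymes, so a call gained that way is not independent support. In A375 DMSO + DOX replicate 3, PHGDH was 2.71 times, PSAT1 3.20 times, PSPH 2.98 times and ALDH1L2 2.96 times the mean of the other 2 replicates. All 18 genes of a list of ATF4 and genes it is known to activate were higher in that library than the mean of its replicates on the log2 scale. In 1205Lu BRAFi + MEKi + DOX replicate 1, PSAT1 was 3.12 times, PHGDH 2.39 times and MTHFD2 2.04 times the mean of the other 2 replicates, whereas SHMT1 was 0.490 times and MTHFD1 0.576 times that mean. There 15 of the 18 ATF4 genes were above the mean of the replicates. CHAC1, a glutathione-degrading enzyme strongly induced by ATF4, reached 1441 in the A375 library against 54.4 and 85.6 in its replicates, and 558 in the 1205Lu library against 43.9 and 47.9.

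**Figure D1:**
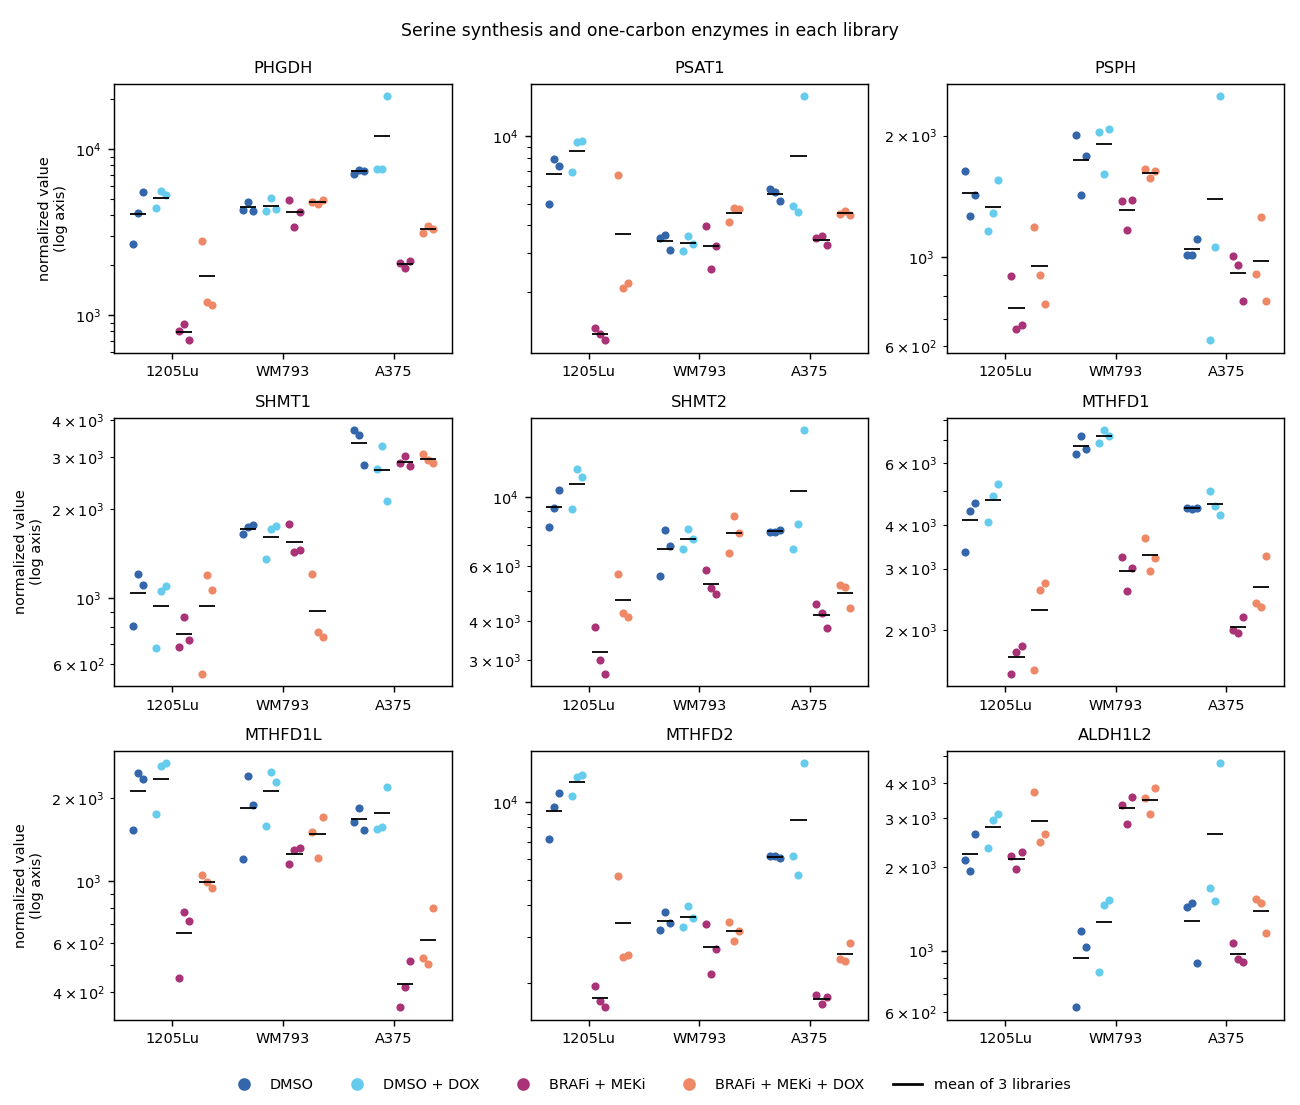
Normalized value of each of the 9 enzymes in every library, on a log axis, by line and treatment. Points are single libraries and bars the mean of 3. PHGDH under BRAFi + MEKi lies at or below 880.2 in 1205Lu and 2120.0 in A375, below every DMSO library of those lines, and overlaps DMSO in WM793.

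Under BRAFi + MEKi most of the pathway fell in 1205Lu and A375, while in WM793 the cytosolic enzyme MTHFD1 and the phosphatase PSPH fell and ALDH1L2 rose. In 1205Lu 7 of the 9 enzymes fell, against 30.9% of all genes called in either direction in that comparison. In A375 5 of 9 fell, against 39.5% of genes called. In WM793 2 fell and 1 rose, which together is no larger a share than the 37.3% of genes called there. The median change of the 9 enzymes was -1.55 in 1205Lu, -0.89 in A375 and -0.35 in WM793, beside 0.11, 0.064 and 0.15 over all genes tested. Calls rest on the moderated test of limma, run on log2(value + 1), with p values adjusted by Benjamini-Hochberg over all genes and a threshold of 0.05. All fold changes below are on that scale. Rescaling each library to the same total moved the median over all genes to 0.16, 0.20 and 0.33, and the split of all calls from 5007 higher and 4628 lower to 6338 and 3815 in A375, and from 4512 and 3724 to 6033 and 2696 in WM793.

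PHGDH, which commits the glycolytic intermediate to serine synthesis, showed the split between the lines. In 1205Lu its values were 2683, 4093 and 5491 in DMSO and 801, 880.2 and 704 under BRAFi + MEKi. In A375 they were 7111, 7506 and 7407 in DMSO and 2062, 1912 and 2120.0 under BRAFi + MEKi. In neither line did the groups overlap, and PHGDH fell 4.95-fold in 1205Lu (log2 change -2.31, SE 0.31, adjusted p = 9.2e-05) and 3.62-fold in A375 (log2 change -1.85, SE 0.27, adjusted p = 0.00011). In WM793 it read 4279, 4810.4 and 4246 in DMSO and 4942, 3381 and 4188 with the inhibitors. Those groups overlapped, and the log2 change of -0.11 had a 95% confidence interval from -0.38 to 0.17.

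PSAT1, the transaminase of the chain, was at 4972, 7928 and 7376 in 1205Lu in DMSO and at 1380.5, 1299 and 1213 under BRAFi + MEKi. It fell 5.11-fold (log2 change -2.35, SE 0.34, adjusted p = 0.00019), with no overlap. In A375 the values 5789, 5628 and 5135 in DMSO and 3512, 3565 and 3258 with the inhibitors did not overlap either. There the log2 change of -0.68 missed the threshold with all 12 libraries of the line (adjusted p = 0.10) and passed it once the A375 library that stood apart was left out with its counterpart in 1205Lu (adjusted p = 3.7e-05). The A375 library was picked for its values of these enzymes, PSAT1 among them, so the lower p is partly built in. In WM793 the log2 change was -0.09, with an interval from -0.40 to 0.21.

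PSPH, the phosphatase that releases free serine, had smaller changes. It fell 1.94-fold in 1205Lu, from a mean of 1438 ± 187 (SD, n = 3) to 745 ± 132 (log2 change -0.95, adjusted p = 0.0020). In WM793 the log2 change of -0.40 passed the threshold narrowly (adjusted p = 0.040). That call was lost when libraries were rescaled to the same total, with array weights, with only the 6 libraries compared and with 5 of the 6 libraries left out in turn. In A375 PSPH had a log2 change of -0.20, with an interval from -0.97 to 0.56.

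Of the serine hydroxymethyltransferases, the mitochondrial one fell in 1205Lu and A375 and the cytosolic one passed the test in no line. SHMT2 was at 8015, 9250.5 and 10530.1 in 1205Lu in DMSO and at 3826, 3009.7 and 2706 under BRAFi + MEKi, a 2.93-fold fall (log2 change -1.55, SE 0.18, adjusted p = 3.3e-05). In A375 it fell 1.85-fold, from 7762 ± 57.1 to 4196 ± 383 (SD, n = 3; log2 change -0.89, adjusted p = 0.0071). In WM793 its values of 5568, 7839.9 and 6976 in DMSO and 5824, 5097 and 4873 with the inhibitors overlapped, and the log2 change of -0.36 had an adjusted p of 0.056, and of 0.030 with the replicate number as a block. SHMT1 had log2 changes of -0.21 in A375, -0.45 in 1205Lu and -0.15 in WM793, with adjusted p values of 0.28, 0.24 and 0.53. The lower ends of its 95% intervals, in the same order, were -0.51, -1.04 and -0.53. With the replicate number as a block SHMT1 in 1205Lu passed narrowly (adjusted p = 0.049).

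MTHFD2 and MTHFD1L, which carry the one-carbon unit through mitochondria, fell together in 1205Lu and A375. MTHFD2 read 7174, 9589 and 10844 in 1205Lu in DMSO and 1938, 1699 and 1604 under BRAFi + MEKi, a 5.21-fold fall (log2 change -2.38, SE 0.24, adjusted p = 1.2e-05). Its A375 values were 6165, 6195 and 6044 in DMSO and 1792, 1654 and 1762 with the inhibitors, a 3.53-fold fall (log2 change -1.82, SE 0.26, adjusted p = 7.2e-05). In WM793 the values were 3209, 3761 and 3415 in DMSO and 3383, 2151 and 2709 with the inhibitors. Those groups overlapped, and the log2 change was -0.35 with an adjusted p of 0.074. MTHFD1L fell 3.27-fold in 1205Lu, from 2111 ± 508 to 650.0 ± 176, and 3.94-fold in A375, from 1672 ± 157 to 428 ± 83.7 (SD, n = 3), with adjusted p values of 0.00013 and 3.8e-06. In WM793 MTHFD1L had a log2 change of -0.49 and an adjusted p of 0.11, and without WM793 DMSO replicate 1, the library with the fewest genes above 0, the log2 change was -0.77 and passed the test.

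MTHFD1, the cytosolic enzyme with several folate activities, was the only member called in the same direction in all 3 lines in the main test, and SHMT2 joined it with the replicate number as a block. Its values in WM793 were 6368, 7209.7 and 6596 in DMSO and 3238, 2591 and 3010.3 under BRAFi + MEKi. It fell there 2.29-fold (log2 change -1.19, SE 0.11, adjusted p = 2.3e-06). In 1205Lu it went from 3357, 4372 and 4630.5 to 1498, 1732 and 1803, and in A375 from 4477, 4432 and 4467 to 1998, 1957 and 2183. The falls were 2.44-fold (adjusted p = 0.00040) and 2.18-fold (adjusted p = 7.7e-06), and the groups did not overlap in any line.

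ALDH1L2, the mitochondrial formyltetrahydrofolate dehydrogenase, went the other way in WM793 alone of the lines. It rose from 625, 1174 and 1032 in DMSO to 3336, 2861 and 3558 with the inhibitors, 3.55-fold (log2 change 1.83, SE 0.24, adjusted p = 4.8e-05). In 1205Lu it read 2111, 1934 and 2628 in DMSO and 2187, 1963 and 2265 under BRAFi + MEKi, a log2 change of -0.05 with an interval from -0.43 to 0.33. In A375 the log2 change of -0.36 had an interval from -1.07 to 0.35. Since ALDH1L2 overlaps WASHC4 on the other strand, how much of its value comes from that gene was not tested.

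**Figure D2:**
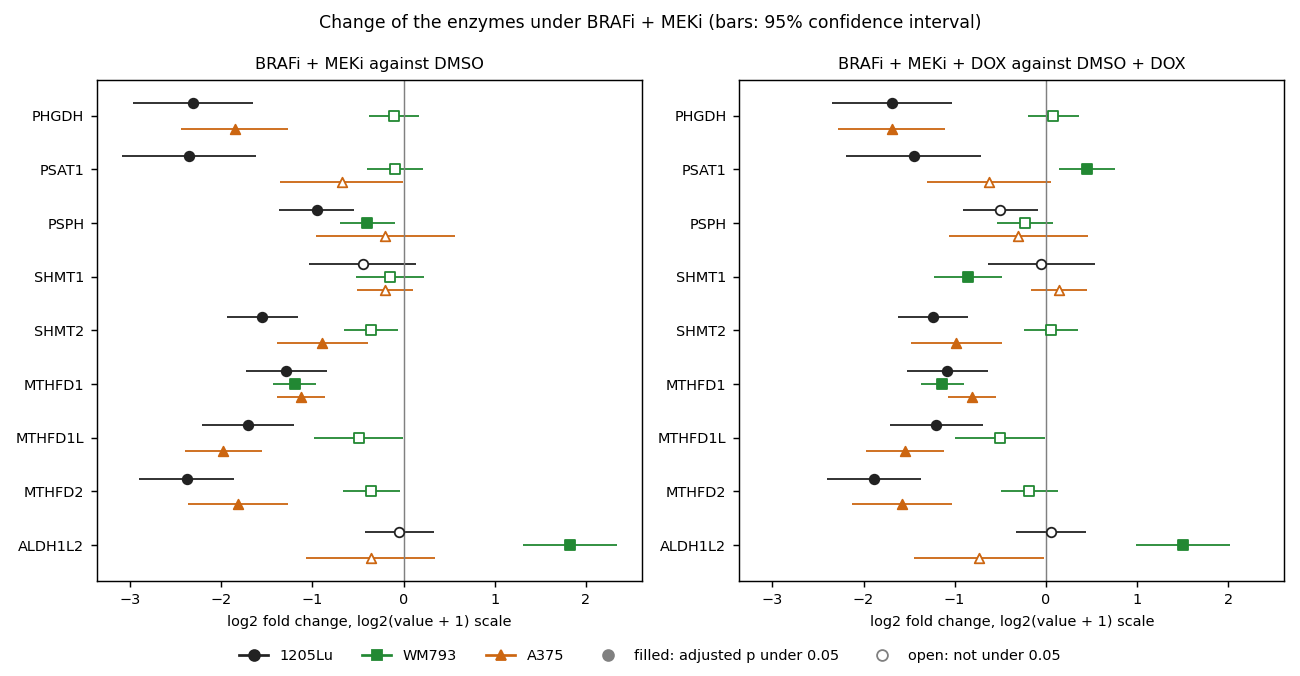
Log2 fold change of each enzyme under BRAFi + MEKi, without DOX at left and with DOX at right, for the 3 lines. Bars are 95% confidence intervals and filled markers passed the test. PHGDH at left stands at -2.31 in 1205Lu and -1.85 in A375, and at -0.11 in WM793, where ALDH1L2 stands at 1.83.

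The same inhibitors were compared in cells with DOX, whose libraries had entered the comparison above only through the spread within groups. With DOX present, BRAFi + MEKi lowered 6 of the 9 enzymes in 1205Lu (28.2% of all genes called) and 5 in A375 (31%). All 6 were among the 7 that fell without DOX in 1205Lu, and the 5 in A375 were the 5 that fell without DOX, namely PHGDH, SHMT2, MTHFD1, MTHFD1L and MTHFD2. In WM793 with DOX, 2 rose and 2 fell (31.7% of genes called). ALDH1L2 rose by 1.50 (adjusted p = 0.00032) and PSAT1 by 0.45 (adjusted p = 0.026), while MTHFD1 fell by 1.13 (adjusted p = 5.4e-06) and SHMT1 by 0.86 (adjusted p = 0.0019), all on the log2 scale. The PSAT1 call did not hold when any 1 of 4 WM793 libraries was left out, with log2 changes of 0.40 to 0.45. MTHFD2 with DOX had log2 changes of -1.89 in 1205Lu and -1.58 in A375. Without both libraries that stood apart these were -2.23 and -1.14, PHGDH had -2.11 and -1.21 in place of -1.69 and -1.69, and PSPH passed as the seventh enzyme in 1205Lu (-0.67, adjusted p = 0.017). With the replicate number as a block PSPH passed there too (-0.50, adjusted p = 0.042).

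The lines were then compared directly, in a fit of all 36 libraries. The response to BRAFi + MEKi differed between 1205Lu and WM793 for 6 of the 9 enzymes, against 14.5% of all genes called in that contrast. PHGDH fell further in 1205Lu, by a difference of -2.20 on the log2 scale (adjusted p = 0.00024). The differences were -2.26 for PSAT1 (adjusted p = 0.00082), -2.03 for MTHFD2 (adjusted p = 0.00013), -1.21 for MTHFD1L (adjusted p = 0.016) and -1.19 for SHMT2 (adjusted p = 0.0046). ALDH1L2 differed by -1.87 (adjusted p = 0.0019), since it rose in WM793. Between WM793 and A375 4 responses differed, against 22.8% of all genes. They were those of PHGDH (1.75), MTHFD1L (1.48), MTHFD2 (1.47) and ALDH1L2 (2.19), each higher in WM793, with adjusted p values from 0.00020 to 0.0023. Between 1205Lu and A375 PSAT1 alone differed, by -1.67 (adjusted p = 0.012), against 14.7% of all genes. The responses of MTHFD1 in 1205Lu and WM793 differed by -0.09, with an interval from -0.55 to 0.37, and those in WM793 and A375 by -0.07, with an interval from -0.53 to 0.39.

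In DMSO 5 of the 9 enzymes were called between 1205Lu and WM793, against 30.7% of all genes. Between 1205Lu and A375 there were 3 of 9, against 46.8%, and between WM793 and A375 5 of 9, against 47.5%, shares below or near those of all genes. MTHFD2 was 2.63-fold higher in 1205Lu than in WM793 (adjusted p = 4.0e-05) and ALDH1L2 was 2.42-fold higher (adjusted p = 0.00090). PSAT1 was 1.95-fold higher in 1205Lu than in WM793 (adjusted p = 0.021). MTHFD1 was 1.65-fold lower in 1205Lu (adjusted p = 0.00068) and SHMT1 1.67-fold lower (adjusted p = 0.011). SHMT1 followed an order over the lines, with means of 3352 ± 475 in A375, 1716 ± 65.1 in WM793 and 1043 ± 208 in 1205Lu (SD, n = 3), and each pair differed by the test. PHGDH was highest in A375 at 7341 ± 205, and WM793 at 4445 ± 317 and 1205Lu at 4089 ± 1404 could not be told apart (adjusted p = 0.76). PHGDH in A375 passed the test against each of those lines (adjusted p = 0.034 and 0.0088). The call against WM793 held under 7 of the 12 settings run and that against 1205Lu under 11. WM793 had more PSPH than A375, 1.65-fold (adjusted p = 0.031), and 1.51-fold more MTHFD1 (adjusted p = 0.0028), while its MTHFD2 was 1.78-fold lower (adjusted p = 0.0060). ALDH1L2 was 1.77-fold higher in 1205Lu than in A375 (adjusted p = 0.020). MTHFD1L passed the test between no pair of lines. Total scaling bears on these values, since rescaling each library to the same total moved the median over all genes from -0.12 to -0.22 between 1205Lu and A375 and from -0.18 to -0.31 between WM793 and A375. PSPH between WM793 and A375 (adjusted p = 0.10) and ALDH1L2 between 1205Lu and A375 (adjusted p = 0.053) then no longer passed, while PSAT1 between WM793 and A375 did (adjusted p = 0.034).

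Over the 36 libraries, with each line's mean taken off, PHGDH and MTHFD2 ran nearly in parallel. The Pearson r of log2(value + 1) was 0.987, and among 14671 genes with a mean of at least 30 MTHFD2 was the gene most like PHGDH and PHGDH the gene most like MTHFD2. After it came GARS1 (r = 0.963), the glycyl-tRNA synthetase, and EIF2S2 (r = 0.950), a subunit of the translation initiation factor eIF2, with SHMT2 next (r = 0.948). PSAT1 was most like YARS1 (r = 0.951), SARS1 (r = 0.942) and GARS1 (r = 0.935), which are the tRNA synthetases for tyrosine, serine and glycine. The points share treatments and libraries, so these values describe likeness and carry no test. Without both libraries that stood apart, PHGDH and MTHFD2 had an r of 0.988 over 34 libraries. PSAT1 then had an r of 0.941 with YARS1, 0.947 with SARS1 and 0.948 with GARS1, so YARS1 no longer came first. Over all 36 libraries MTHFD1L had an r with PHGDH of 0.892, MTHFD1 of 0.701, PSPH of 0.672, ALDH1L2 of 0.357 and SHMT1 of 0.0601. Without those libraries the last 4 were 0.773, 0.578, 0.188 and 0.223.

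**Figure D3:**
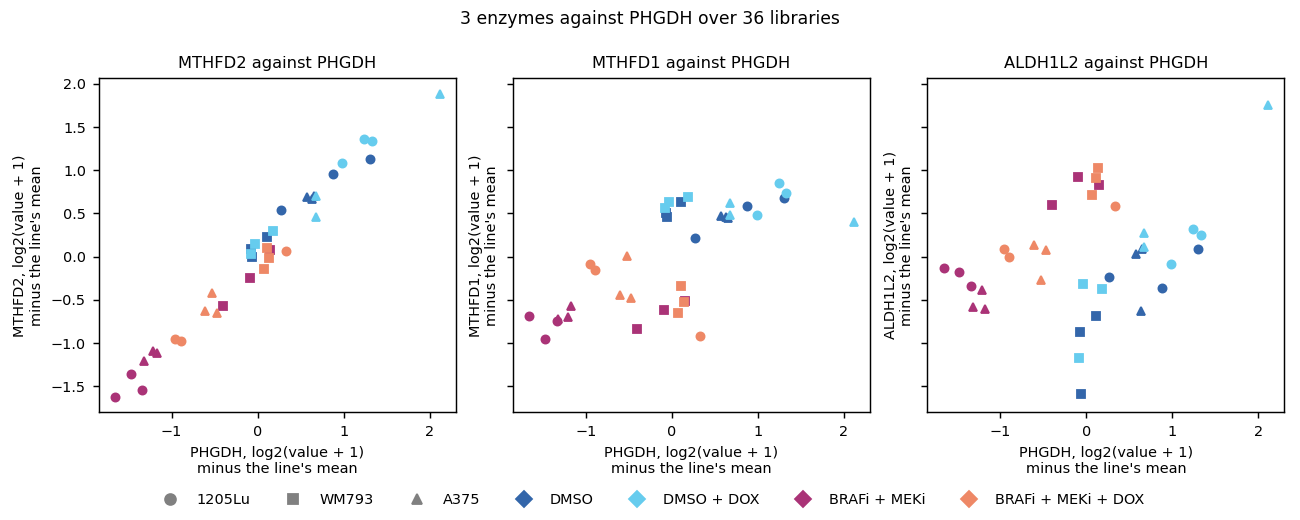
MTHFD2, MTHFD1 and ALDH1L2 against PHGDH in 36 libraries, each as log2(value + 1) minus the mean of its line. Marker shape gives the line and color the treatment. MTHFD2 follows PHGDH along a single diagonal (r = 0.987), MTHFD1 separates by treatment also in WM793, and the 6 WM793 libraries with BRAFi + MEKi lie highest for ALDH1L2 apart from A375 DMSO + DOX replicate 3.

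The regulators known for the pathway were read beside it, and counts of this and the other lists stand against 39.5% of all genes called in A375, 30.9% in 1205Lu and 37.3% in WM793. The ATF4 transcript rose by 0.80 on the log2 scale in WM793 under BRAFi + MEKi (adjusted p = 0.00033). It fell by 1.11 in 1205Lu (adjusted p = 0.0014), and the change of -0.38 in A375 did not pass (adjusted p = 0.26). Of the 18 genes of the ATF4 list, 9 fell and 1 rose in 1205Lu, 11 rose and 2 fell in WM793, and 7 fell and 2 rose in A375. The medians of the list were -0.79, 0.85 and -0.62. NUPR1, a stress-induced chromatin protein, was at 0 in all 3 WM793 DMSO libraries and at 17.4, 10.2 and 61.8 with the inhibitors. STC2, a secreted glycoprotein, rose by 3.02 in WM793 (adjusted p = 3.4e-05) and fell by 1.52 in 1205Lu (adjusted p = 0.015). CHAC1 fell by 3.45 in 1205Lu (adjusted p = 0.0037) and rose by 2.21 in WM793 (adjusted p = 0.00075). In WM793 ALDH1L2 and most of the ATF4 list rose, while PHGDH, PSAT1, SHMT2 and MTHFD2 had values of -0.36 to -0.09. With libraries rescaled to the same total, PHGDH and PSAT1 were at 0.10 and 0.11 there. The part of ATF4 in the changes of the enzymes was not tested.

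MYC fell in all 3 lines, with log2 changes of -1.92 in A375 (adjusted p = 0.00026), -2.07 in 1205Lu (adjusted p = 1.7e-05) and -1.67 in WM793 (adjusted p = 5.6e-06). Its values in WM793 went from 2118, 1983 and 1609 to 518, 638 and 636, and those groups did not overlap. In the ERK output list, 12 of 14 genes fell in 1205Lu and 13 of 14 in WM793 and in A375. EGR1 fell by 7.40 in WM793 (adjusted p = 6.4e-07) and SPRY4, a feedback inhibitor of the pathway, by 5.90 (adjusted p = 2.0e-08). ETV4 fell by 7.13 in A375 (adjusted p = 4.0e-07). In WM793, where these genes fell, MTHFD1 fell as well, and PHGDH and PSAT1 were not called under any of the 12 settings run. There SHMT2 was called under 4 of those settings and MTHFD1L and MTHFD2 under 2 each, all as falls, but not in the main test. The part of MYC and of ERK output in the changes of the enzymes was not tested.

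**Figure D4:**
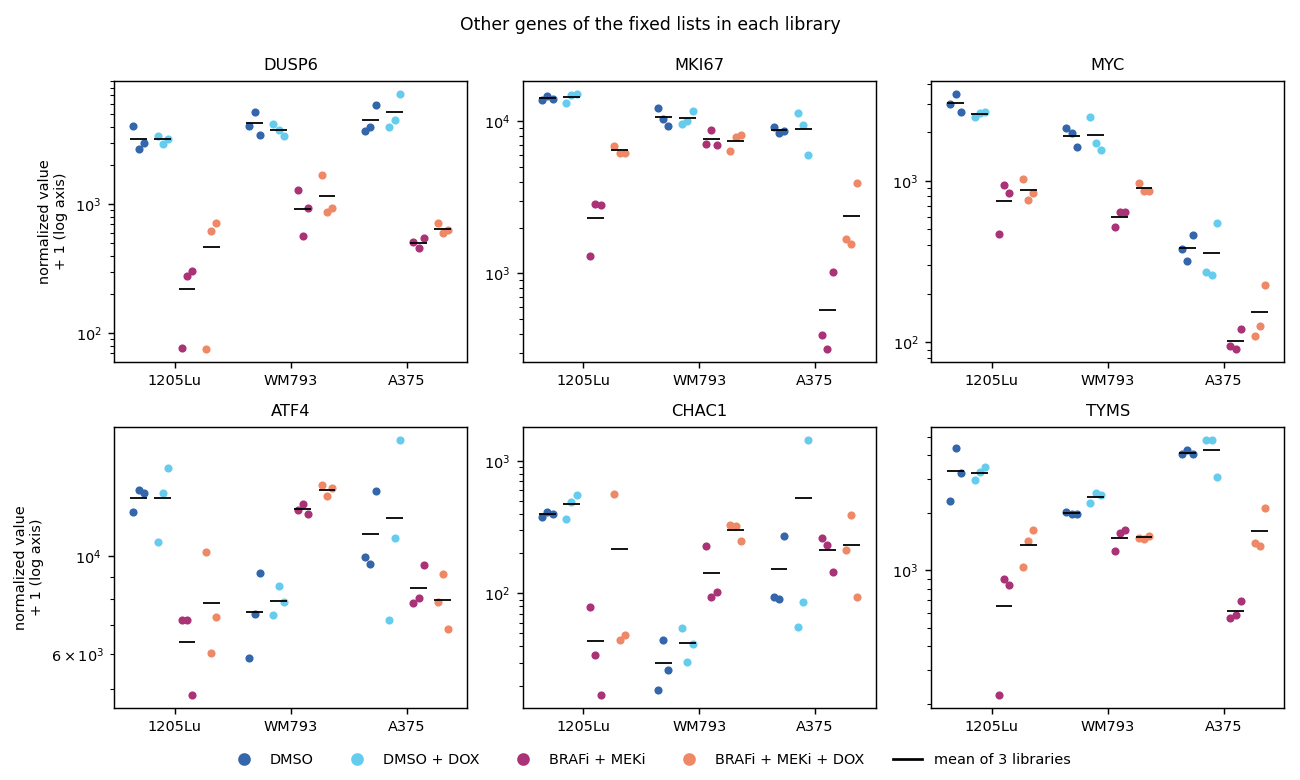
Value + 1 of 6 other genes in every library, on a log axis. DUSP6 and MYC fall with BRAFi + MEKi in all 3 lines, while ATF4 is higher in the WM793 libraries with BRAFi + MEKi (12493 to 13163) than in those with DMSO (5866 to 9147), and CHAC1 marks both libraries that stand apart, at 1441 and 558.

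Proliferation markers were read in the same comparison. All 14 fell in 1205Lu and all 14 in A375, with list medians of -2.43 and -3.70, whereas 5 of 14 fell in WM793, with a median of -0.21. RRM2, a ribonucleotide reductase subunit, fell by 5.33 in A375 (adjusted p = 5.5e-08) and PLK1 and TK1 had called changes of -4.78 and -4.27 there. MKI67 went from 13808, 14503 and 14047 to 1302, 2851 and 2828 in 1205Lu and from 12218, 10289.9 and 9295 to 7112, 8717 and 6999 in WM793. All 14 markers were lower in 1205Lu BRAFi + MEKi replicate 1 than the mean of its replicates on the log2 scale, by a median of 1.26. The 1205Lu median includes that library. The part of cell proliferation in the changes of the enzymes was not tested. In bulk RNA of this kind, fewer cycling cells and less RNA per cell cannot be told apart.

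Neighboring pathways were taken from lists of folate, glycine, methionine and purine genes. Purine synthesis, the main user of cytosolic one-carbon units, fell in every line, with 6 of 8 genes called lower in 1205Lu, 7 of 8 in WM793 and 8 of 8 in A375 and none higher. PAICS had log2 changes, in the same order of lines, of -1.42, -1.57 and -2.33 (adjusted p = 0.0020, 4.2e-07 and 5.1e-07). ATIC, which uses the last one-carbon unit of the pathway, had changes of -1.06, -1.74 and -1.14 (adjusted p = 0.0024, 2.1e-08 and 2.5e-06). PRPS2, which makes the ribose donor, fell by 1.77 in A375 (adjusted p = 1.3e-05), and its log2 change in WM793 was -0.21 (adjusted p = 0.50).

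In the folate list, 4 of 14 genes tested fell and 1 rose in 1205Lu, 3 of 13 fell and 2 rose in WM793, and 3 of 15 fell and 4 rose in A375, near the shares of all genes called. TYMS, which makes thymidylate with a folate-bound carbon, had log2 changes of -2.76 in A375 (adjusted p = 1.3e-07), -2.53 in 1205Lu (adjusted p = 0.00043) and -0.43 in WM793 (adjusted p = 0.0068), all called. The mitochondrial folate carrier SLC25A32 fell by 0.73 in 1205Lu (adjusted p = 0.00035) and by 1.09 in WM793 (adjusted p = 3.4e-06), with a change of -0.29 in A375. FTCD, a histidine-degrading enzyme, rose by 2.33 in A375 (adjusted p = 0.011). MTHFD2L, the close relative of MTHFD2, was low, between 35.9 and 225 over all libraries, and passed no test of BRAFi + MEKi. ALDH1L1, the cytosolic counterpart of ALDH1L2, reached the expression filter in A375 only, with a log2 change of -0.17 there.

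Of the glycine list, 4 of 12 genes tested fell and 2 rose in 1205Lu, 3 of 12 fell and 4 rose in WM793, and 3 of 13 fell and 4 rose in A375. GLDC, the glycine decarboxylase, went in opposite directions, from 380.3, 339 and 291 to 39.0, 26.5 and 17.5 in 1205Lu and from 221, 223 and 232 to 1211, 1147 and 363 in A375. It fell by 3.62 in the former (adjusted p = 4.8e-06) and rose by 1.82 in the latter (adjusted p = 0.0043). SLC6A9, a glycine transporter, fell by 2.83 in 1205Lu (adjusted p = 0.00015), and GCAT, which degrades threonine to glycine, by 1.70 in WM793 (adjusted p = 0.0016). In the methionine and transsulfuration list, 1 of 11 tested genes fell and 2 rose in 1205Lu, 4 fell and 1 rose in WM793, and 4 fell and 1 rose in A375. AHCY, which clears S-adenosylhomocysteine, fell by 1.34 in WM793 (adjusted p = 2.4e-06) and CBS, which commits homocysteine to cysteine synthesis, by 1.40 in A375 (adjusted p = 0.010). MAT1A, which makes S-adenosylmethionine, fell by 3.18 in A375 (adjusted p = 0.0011).

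Stretches of promoter sequence are shown for the members whose window holds a motif of the regulators above, MTHFD1 and MTHFD1L. Any part of these regulators in the changes was not tested. RefSeq windows on GRCh38.p14, from 250 bases before to 50 after an annotated start, were found for 6 of the 9 members, and PSPH, SHMT2 and ALDH1L2 had none in the table. Both strands were searched for TGATGNAA, a core of the element bound by ATF4 with C/EBP proteins, for CACGTG, the E-box bound by MYC, and for AGGTCA, a hexamer recognized by nuclear receptors such as NR2F1. The capitals mark the motif. The first stretch is from chr14:64388332-64388349, plus strand, with its E-box ending 10 bases before the start of MTHFD1. The others are from chr6:150866326-150866343 and chr6:150866351-150866370, plus strand, in windows of MTHFD1L.
MTHFD1 E-box: cctaagCACGTGggttgg
MTHFD1L E-box: cggctcCACGTGcgcagc
MTHFD1L ATF4 element core: cggctcTGATGCAAtcgcgc
MTHFD1L has several annotated starts, and 3 of its 4 windows hold both motifs. Both lie before the starts at 150866447 and 150866486, while at the start at 150866333 the E-box overlaps the start and the ATF4 element core lies after it. Of all 35116 windows in the table, 7.26% hold the E-box, 3.62% the ATF4 element core and 13.8% the nuclear receptor hexamer. The windows of PHGDH, PSAT1, SHMT1 and MTHFD2 hold none of these letters, and no member's window holds AGGTCA. A match is a string of letters and not a measured binding site.

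DOX in DMSO moved none of the 9 enzymes past the threshold in any line, by limma's adjusted p, against 0.0492% of all genes called in A375, 0.00903% in 1205Lu and 0.512% in WM793. At an unadjusted p under 0.05 the count was 2 in A375 and 0 in each of the others, against 7.95% of all genes in A375, 6.85% in 1205Lu and 9.92% in WM793. The block raised the genes called from 12 to 79 in A375 and from 113 to 284 in WM793, and called no enzyme. The changes in 1205Lu ran from -0.15 (SHMT1) to 0.39 (MTHFD2) and in WM793 from -0.10 (SHMT1) to 0.43 (ALDH1L2). In A375 the 2 were ALDH1L2, with a log2 change of 0.88, and SHMT1, with -0.32, and both rest on the group with the library that stood apart. Without it ALDH1L2 changed by 0.36 and PHGDH by 0.05 instead of 0.53.

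Under BRAFi + MEKi, most of the enzymes had higher means with DOX in each line, but none passed the adjusted test of limma. The median change of the 9 was 0.39 in A375, 0.56 in 1205Lu and 0.22 in WM793, beside -0.0013, -0.0092 and 0.0016 over all genes tested. Calls covered 1.52% of all genes in A375, 0.334% in 1205Lu and 0.204% in WM793. At an unadjusted p under 0.05 there were 4 of 9 enzymes in A375 (10.6% of all genes), 6 in 1205Lu (9.72%) and 4 in WM793 (7.95%). In 1205Lu the libraries with DOX all lay above those lacking it for 6 of the 9 enzymes, against 6.06% of all genes. The same held for 3 of 9 in WM793, against 6.94%, and 5 of 9 in A375, against 8.28%. With the replicate number as a block, 601 genes passed in A375, 364 in 1205Lu and 127 in WM793, none of the 9 enzymes among them. Array weights, which lower the influence of variable libraries, called 4 enzymes in 1205Lu, against 6.23% of all genes, and 3 in WM793, against 2.17%. Those in 1205Lu were all higher with DOX, while in WM793 PSAT1 and SHMT2 were higher and SHMT1 was lower.

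PHGDH read 801, 880.2 and 704 in 1205Lu under BRAFi + MEKi and 2800.3, 1197 and 1148 with DOX added. All 3 values with DOX were higher, and the first is that of the library that stood apart. The log2 change was 0.98, with an interval from 0.33 to 1.64 and an adjusted p of 0.24, and it was 0.57 (adjusted p = 0.23) without that library. In A375 PHGDH went from 2062, 1912 and 2120.0 to 3137, 3447 and 3319.7. The log2 change of 0.70 had an adjusted p of 0.35 with all 12 A375 libraries, and of 0.00043 once the DMSO + DOX library that stood apart no longer fed the estimate of the spread. That library was picked for its values of these enzymes, PHGDH among them, so the lower p is partly built in. In WM793 the values of 4942, 3381 and 4188 and of 4810.0, 4692 and 4902 overlapped, with a log2 change of 0.22.

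PSAT1 and MTHFD2 also had higher means with DOX in 1205Lu and A375. PSAT1 went from 1380.5, 1299 and 1213 to 6683, 2094 and 2195 in 1205Lu, a log2 change of 1.27 (adjusted p = 0.15) with the library that stood apart and 0.73 (adjusted p = 0.069) without it. MTHFD2 went from 1792, 1654 and 1762 to 2468, 2428 and 2833 in A375, a log2 change of 0.57 (adjusted p = 0.45, and 0.0065 with both libraries that stood apart left out). PSAT1 in A375 had a log2 change of 0.39, which passed the test only when those libraries were left out (adjusted p = 0.032). The libraries were picked for their values of these enzymes, so the lower p values of MTHFD2 and PSAT1 in A375 are partly built in. In WM793 PSAT1 went from 3955, 2535 and 3224 to 4129, 4751 and 4745, with a log2 change of 0.51, an interval from 0.20 to 0.82 and an adjusted p of 0.27. SHMT2 had a change of 0.23 in A375, 0.53 in WM793 and 0.56 in 1205Lu, the last being 0.41 without the library that stood apart.

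MTHFD1 in 1205Lu went from 1498, 1732 and 1803 to 1535, 2601 and 2725 with DOX, and the lowest of the latter is from the library that stood apart. Its log2 change was 0.41 with that library (adjusted p = 0.57) and 0.67 without it (adjusted p = 0.047). SHMT1 was the exception in WM793, at 1776, 1431 and 1451 without DOX and 1205, 768 and 743 with it. These groups did not overlap, the log2 change was -0.81 (interval from -1.18 to -0.43) and the adjusted p was 0.11. Without WM793 BRAFi + MEKi + DOX replicate 1 the change was -1.03 and passed the test. The other strand at this locus carries SMCR8, and its part in that value was not tested.

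**Figure D5:**
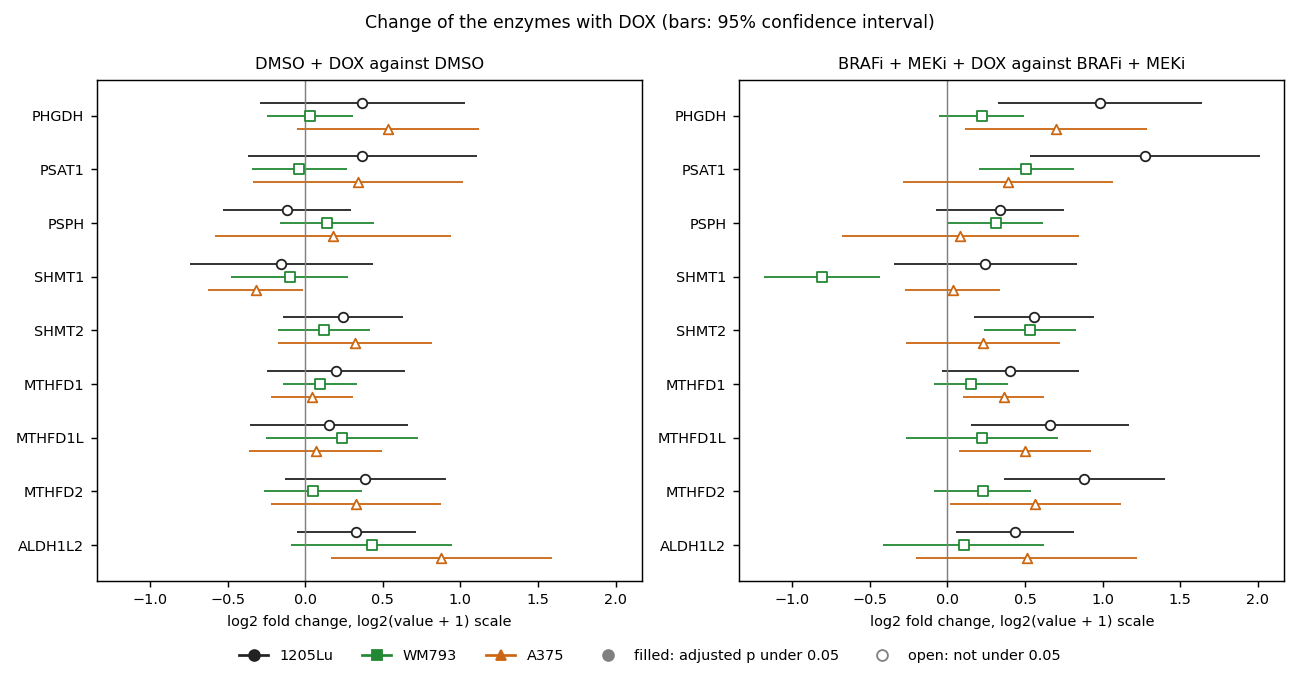
Log2 fold change of each enzyme with DOX, in DMSO at left and under BRAFi + MEKi at right, for the 3 lines, with 95% confidence intervals. All markers are open because none passed the test. At right most lie above 0, from 1.27 for PSAT1 in 1205Lu down to -0.81 for SHMT1 in WM793.

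The DOX effect under BRAFi + MEKi was set against that in DMSO by an interaction term. None of the 9 enzymes was called in any line by limma, against 0.46% of all genes in A375, 0% in 1205Lu and 0% in WM793. At an unadjusted p under 0.05 there were 0, 0 and 2 enzymes in these lines, against 7.25%, 5.72% and 5.72% of all genes, those in WM793 being PSAT1 (0.55) and SHMT1 (-0.71). Between lines, the DOX effect under BRAFi + MEKi was not called different for any of the enzymes, against 0.138% of all genes for 1205Lu and WM793, 0.179% for 1205Lu and A375 and 0.881% for WM793 and A375. The counts at an unadjusted p under 0.05 were 1, 0 and 1, against 7.11%, 8.07% and 8.36% of all genes, and the enzyme was SHMT1 both times, with differences of 1.05 between 1205Lu and WM793 and -0.84 between WM793 and A375. Without the 1205Lu library that stood apart, the former was 1.39 and passed the test, with an adjusted p of 0.0060 when its A375 counterpart was left out too. With the replicate number as a block, which pairs the libraries of this comparison in both lines, the difference of 1.05 also passed (adjusted p = 0.032).

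The proliferation list was called most often for DOX under the inhibitors in 1205Lu and A375. In the glycine list 1 gene rose in WM793 and 1 in 1205Lu. Of the 14 proliferation markers, 4 rose in 1205Lu, against 0.334% of all genes called, and 13 in A375, against 1.52%, with medians of 1.25 and 1.65. None was called in WM793 (0.204% of all genes), where the median was -0.01. MKI67 rose by 1.55 in 1205Lu (adjusted p = 0.016) and by 2.11 in A375 (adjusted p = 0.013). In 1205Lu BRAFi + MEKi replicate 1 the markers summed to 11982, against 28375 and 26847 in its replicates and 38897 to 46298 with DOX. The 1205Lu values include that low library and are not given without it. TYMS rose by 1.37 in A375 (adjusted p = 0.0011), while the test was not passed in 1205Lu (adjusted p = 0.25). Of the ATF4 list, no gene was called in any line, and 12 of the 18 had a change above 0 in A375, 15 in 1205Lu and 16 in WM793. The 1205Lu count includes the library that stood apart, where the list summed to 77987, against 37948 and 38434 in its replicates. Without DOX the 1205Lu sums were 31944 to 35915. The count without that library is not given. Medians over all genes were -0.0013, -0.0092 and 0.0016 in A375, 1205Lu and WM793. No gene of the ERK output list was called either, with medians of 0.02 in A375, -0.64 in 1205Lu, where 12 of 14 lay below 0, and 0.26 in WM793. The part of proliferation in the values of the enzymes with DOX was not tested.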

How the data were processed

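RNA-Seq was done in 3 melanoma lines under 4 treatments with 3 replicates, which the study describes as independent experiments. For alignment to GRCh38 and GENCODE 35 the authors used STAR 2.7.0, for gene quantification RSEM 1.2.28 and for normalization DESeq2 1.28.1. What they deposited is a normalized signal per gene that no longer holds counts, so the exact depth per library is unknown. The commonest low value above 0 was 4.855 in WM793 DMSO replicate 1 and between 0.49 and 1.443 in every other library. If the signal is counts scaled by library, that value stands for a single count. WM793 DMSO replicate 1 would then be the shallowest library, and it enters every comparison with DMSO in WM793. All 36 libraries were used and grouped by their labels. The 9 members, 7 other gene lists, marker lists and tests were chosen with earlier results of these data known. Of each list, genes named are those always named (ATF4, MYC, TYMS, MTHFD2L, ALDH1L1, GLDC and SLC25A32) and up to 3 with the largest called change under BRAFi + MEKi. DUSP6, SOX10, MLANA, TYR and PTPRC were named outside this rule. A few genes that this rule names are not reported here. MKI67, NUPR1 and CHAC1 values by library were added after they were seen.

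limma 3.58.1 in R 4.3.3 was run with a mean-variance trend on log2(value + 1), for genes whose mean reached 1 in some group. Fits took the 12 libraries of a line, or all 36 for differences between lines, with Benjamini-Hochberg adjustment at 0.05. Mean ± SD is given on the scale of the deposited signal. Whether replicate numbers pair the libraries depends on the genes used. Over all genes tested, every pair had a correlation over 0.1 in 2 of 12 comparisons, BRAFi + MEKi + DOX against BRAFi + MEKi in 1205Lu (r from 0.109 to 0.274) and WM793 (r from 0.105 to 0.251), and over genes whose mean reached 30 in 8 of 12. Values with the replicate block are therefore given wherever they change a call of a member. Alternatives are given in the closing section. Tables were made with Python 3.11.15, numpy 2.4.6 and pandas 2.3.3. Values are compared within 1 normalization.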

Additional observations from a re-analysis of the deposited data

Results flagged for a closer look

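A total of 11 responses to BRAFi + MEKi differed between lines by a test of the difference itself (limma, all 36 libraries), given here on the log2(value + 1) scale. Between 1205Lu and WM793 the differences were -2.20 for PHGDH, -2.26 for PSAT1, -1.19 for SHMT2, -1.21 for MTHFD1L, -2.03 for MTHFD2 and -1.87 for ALDH1L2. Between WM793 and A375 they were 1.75 for PHGDH, 1.48 for MTHFD1L, 1.47 for MTHFD2 and 2.19 for ALDH1L2. Between 1205Lu and A375 the difference was -1.67 for PSAT1. MTHFD1L between 1205Lu and WM793 was -0.97 without 1205Lu BRAFi + MEKi replicate 1 and -0.94 without WM793 DMSO replicate 1, and no longer passed. The other 10 passed whichever of the libraries compared was left out, while libraries of the other groups were not left out singly.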

How the results depend on the processing

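No value that passed the test with or without the alternative changed direction. Values that did not pass changed sign in 33 cases, and in 80 when 1 library was left out, PHGDH, PSAT1 and SHMT1 in WM793 under BRAFi + MEKi among them. Of the values for single genes, 1279 kept their side of the threshold and their sign outside the runs that left out 1 library, 42 gained a call and 5 lost one. In the runs that left out 1 library, 12 gained a call and 27 lost one. Array weights called 4 members for DOX under BRAFi + MEKi in 1205Lu, against 6.23% of all genes, and 3 in WM793, against 2.17% (0 in the main test). They called 5 members for BRAFi + MEKi in WM793 (3 in the main test) and 3 responses between 1205Lu and A375 (1 in the main test). They also called 1 DOX effect each between 1205Lu and WM793 and between WM793 and A375. Leaving out both libraries that stand apart, chosen after seeing the data, gave 1 member for DOX under BRAFi + MEKi in 1205Lu and 3 in A375, 5 between 1205Lu and A375 in DMSO (3 in the main test), 4 responses between those lines and 1 DOX effect between 1205Lu and WM793. With only the 6 libraries compared, 2 members were called for DOX under BRAFi + MEKi in A375. The cause was not tested. Apart from the shares given, no share of all genes called under these settings stands beside these counts. They describe how calls moved and are not read as a result about the enzymes.

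With the replicate block, the DOX effect on SHMT1 differed between 1205Lu and WM793 (1 member, 0 in the main test), and no call between lines in DMSO changed. In comparisons within a line the replicate block added SHMT1 in 1205Lu and SHMT2 in WM793 for BRAFi + MEKi and PSPH in 1205Lu for BRAFi + MEKi with DOX.

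Leaving out 1 library at a time gave 0 to 1 members for DOX under BRAFi + MEKi in 1205Lu (1 without BRAFi + MEKi + DOX replicate 1) and in WM793 (1 without BRAFi + MEKi + DOX replicate 1), 3 to 5 between WM793 and A375 in DMSO (3 without WM793 DMSO replicate 1 or 3, or A375 DMSO replicate 1 or 2) and 0 to 1 DOX effects between 1205Lu and WM793.

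Counts over all genes moved more for DOX. Under BRAFi + MEKi, 74 genes in 1205Lu became 364 with the replicate block, 1379 with array weights, 738 without both libraries that stand apart and 6 with only the 6 libraries compared. In WM793 45 became 22 with a pseudocount of 0.1, 127, 478 and, with only 6 libraries, 19, and in A375 370 became 601 with the block and 1035 with weights. In DMSO, 113 in WM793 became 284 and 419, and 12 in A375 became 79 and 23. The interaction went from 0 to 20 (weights) or 57 (both left out) in 1205Lu, 0 to 43 in WM793 and 112 to 236 or 60 in A375. Between lines, DOX effects went from 37 to 163, 837 and 419, from 48 to 170, 785 and 471, and from 236 to 365 and 746. Exact depth is unknown, so precision rests on 3 libraries per group.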
